A study of Saccharomyces cerevisiae with 4 samples.

Results

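The genes described here encode 10 core components of the yeast mating pheromone pathway, and they were chosen by systematic name. They are STE4, STE5, STE18, GPA1, FUS3, STE12, FAR1, SST2, MSG5 and KAR4. All 10 were listed in each of the 4 libraries, among 6690 names in all, and all 10 were among the 6370 names tested. RNA was sequenced from exponentially growing Saccharomyces cerevisiae in the rich medium YPD. The wild-type strain was compared with a strain that lacks both SIR2 and HST1, with 2 libraries each. The alpha mating type was shared, as were can1-100, his3-11, trp1-1, ura3-1, lys2D and a leu2 allele. The labels give the HMR locus as hmr::ura3 in wild type and as hmrD::ura3 in the deletion strain, and only the wild-type label adds GAL. In the deletion strain SIR2 was replaced by TRP1 and HST1 by KanMX. Any effect of these markers, or of the HMR and GAL differences in the labels, cannot be told apart from that of the deletions. Each genotype was 1 strain, and its 2 libraries were technical replicates according to the series, so p-values measure the spread between libraries and not between cultures. Each library pools a whole culture, so fewer expressing cells and less RNA per cell cannot be told apart.

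Haploid yeast cells signal mating readiness through a receptor coupled to a heterotrimeric G protein. Pheromone binding frees the Ste4 and Ste18 dimer from Gpa1, and the dimer recruits the scaffold Ste5, on which the kinases Ste11, Ste7 and Fus3 act in turn. Fus3 then activates the transcription factor Ste12 and the cell cycle inhibitor Far1. Sst2 and Msg5 shut the signal off. Most of these genes are haploid-specific: the a1 and alpha2 proteins repress them together in diploids. Sir2 silences HML and HMR, the stores of these proteins' genes, and without an HMR copy an alpha cell has no source of a1. Ste12 binds the pheromone response element, TGAAACA, upstream of many genes of this pathway.

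The files gave FPKM values, which are fragments scaled by gene length and by the size of the library, without read totals. The deleted genes SIR2 and HST1 were listed at 0 in both deletion libraries and at 23.8 to 58.2 FPKM in wild type. The labelled mating type was checked with genes expressed in 1 type. Of the alpha genes, STE3 had 357 and 367 FPKM in wild type. SAG1, the agglutinin gene of alpha cells, fell from 304 and 335 FPKM to 158 and 171 (limma adjusted p = 0.00359), the 1 of 5 alpha genes to pass. Means were lower for 3 of these 5 and higher for 2, against 51.0% lower over all names tested. Of the a genes, STE2 had 7.01 and 7.85 FPKM in wild type, and AGA2, an agglutinin gene, had 2.40 and 5.38 against 6.38 and 8.72 in the deletion strain. The a-factor genes were listed in wild type at 35.3 and 0 FPKM (MFA1) and at 47.0 and 21.1 (MFA2). The median of all names tested was 40.9 and 40.5 FPKM in these libraries. Of 7 a genes 0 passed, and 2 were higher at an unadjusted p under 0.05. Among all names tested, 9.54% passed and 16.1% were higher at that unadjusted p. All 7 had a higher mean on the log2(FPKM + 1) scale, but 4 of 7 did with quantile normalization. MFA1 and MFA2 were higher without wild-type replicate 1. Without wild-type replicate 2, AGA2 was higher, while MFA1 was lower. Each of these fits leaves 1 wild-type library, which then takes its spread from the deletion libraries. BAR1, a protease gene, passed in 3 other settings (adjusted p between 0.0228 and 0.0461). The absence of a1 itself was not tested. Absolute depth is unknown, but steps among the lowest values put wild-type replicate 2 at 89.2% of the depth of wild-type replicate 1. The deletion libraries came out at 83.2% and 77.1% of it. Only 29.2% to 36.2% of the ratios between libraries fell on such steps. The steps also carry the scaling between libraries, which is not given, so these percentages need not be sequencing depth.

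Upstream sequences of 4 members contained the exact pheromone response element and are shown for that reason. FUS1, a cell fusion gene that Ste12 activates, is shown for comparison. Each line runs 5′ to 3′ on the strand of the gene, from 250 bases before the start codon through the first 50 bases of the coding sequence, and capitals mark TGAAACA or its reverse complement. Sequences and coordinates come from the RefSeq R64 assembly and its own annotation, matched by systematic name, since the build of the files is not given in the sources used here.

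STE18, chrX:585818-586117, plus strand: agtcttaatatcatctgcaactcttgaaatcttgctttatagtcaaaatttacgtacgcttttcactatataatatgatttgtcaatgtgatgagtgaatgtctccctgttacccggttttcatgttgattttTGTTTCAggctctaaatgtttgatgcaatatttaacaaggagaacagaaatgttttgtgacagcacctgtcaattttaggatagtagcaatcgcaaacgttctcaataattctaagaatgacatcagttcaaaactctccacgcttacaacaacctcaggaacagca

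FUS3, chrII:192201-192500, plus strand: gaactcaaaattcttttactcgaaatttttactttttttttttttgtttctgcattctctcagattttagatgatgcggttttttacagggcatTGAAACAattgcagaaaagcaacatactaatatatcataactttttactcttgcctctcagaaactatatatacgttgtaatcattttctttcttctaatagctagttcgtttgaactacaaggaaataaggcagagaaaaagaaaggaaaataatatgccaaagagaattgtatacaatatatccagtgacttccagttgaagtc

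SST2, chrXII:1041317-1041616, minus strand: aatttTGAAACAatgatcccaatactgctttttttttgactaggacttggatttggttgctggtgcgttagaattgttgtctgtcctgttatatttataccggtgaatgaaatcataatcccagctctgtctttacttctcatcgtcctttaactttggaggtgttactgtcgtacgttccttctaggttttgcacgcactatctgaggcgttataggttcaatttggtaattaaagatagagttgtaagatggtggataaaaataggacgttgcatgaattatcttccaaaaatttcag

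KAR4, chrIII:27679-27978, plus strand: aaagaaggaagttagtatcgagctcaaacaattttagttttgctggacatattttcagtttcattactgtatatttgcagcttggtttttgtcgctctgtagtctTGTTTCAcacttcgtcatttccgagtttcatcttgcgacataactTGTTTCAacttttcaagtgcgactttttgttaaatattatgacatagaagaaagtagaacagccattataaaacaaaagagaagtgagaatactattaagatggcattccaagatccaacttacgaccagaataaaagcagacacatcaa

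FUS1, chrIII:71553-71852, plus strand: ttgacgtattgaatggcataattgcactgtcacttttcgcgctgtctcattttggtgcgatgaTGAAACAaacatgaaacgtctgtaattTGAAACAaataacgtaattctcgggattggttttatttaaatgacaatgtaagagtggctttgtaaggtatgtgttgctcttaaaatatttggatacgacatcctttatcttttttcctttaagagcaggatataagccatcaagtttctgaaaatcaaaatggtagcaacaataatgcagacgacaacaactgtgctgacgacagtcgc

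The element was found on either strand in 4 of the 10 members and in 449 of 5985 upstream regions of the same length, or 7.50%. KAR4 had 2 copies, and STE18, FUS3 and SST2 had 1 each. The element GNCACAAA, a form of the middle sporulation element bound by Sum1, the repressor that Hst1 works with, and by Ndt80, was found in STE4 and STE18 and in 4.33% of all upstream regions. The motifs did not overlap. A match is a description of these letters, and binding was not measured.

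None of the 10 members passed the test between genotypes, and their means lay between 77.2% and 120% of wild type. In size, the members' differences exceeded those of 30.8% (KAR4) to 85.4% (FUS3) of all names tested. Expression differed in 9.54% of all names tested at an adjusted p under 0.05 (limma on log2(FPKM + 1), Benjamini-Hochberg). Of the 10 members 0 passed, while 7 had an unadjusted p under 0.05, 1 of them higher in the deletion strain and 6 lower. Over all names tested, 16.1% were higher at that unadjusted p and 14.1% were lower. The mean was lower in the deletion strain for 9 members and higher for STE18 alone. A lower mean was found for 51.0% of all names tested. The libraries of the genotypes did not overlap for 8 lower members and for STE18, and they overlapped for KAR4. Over all names tested the libraries were separate in the lower direction for 31.7% and in the higher direction for 30.5%. The median log2 difference was -0.18 for the members and -0.01 for all names tested. The 95% intervals of the members lay between 66.3% and 135% of the wild-type level on the FPKM + 1 scale, so none reached a change of 2-fold.

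**Figure D1:**
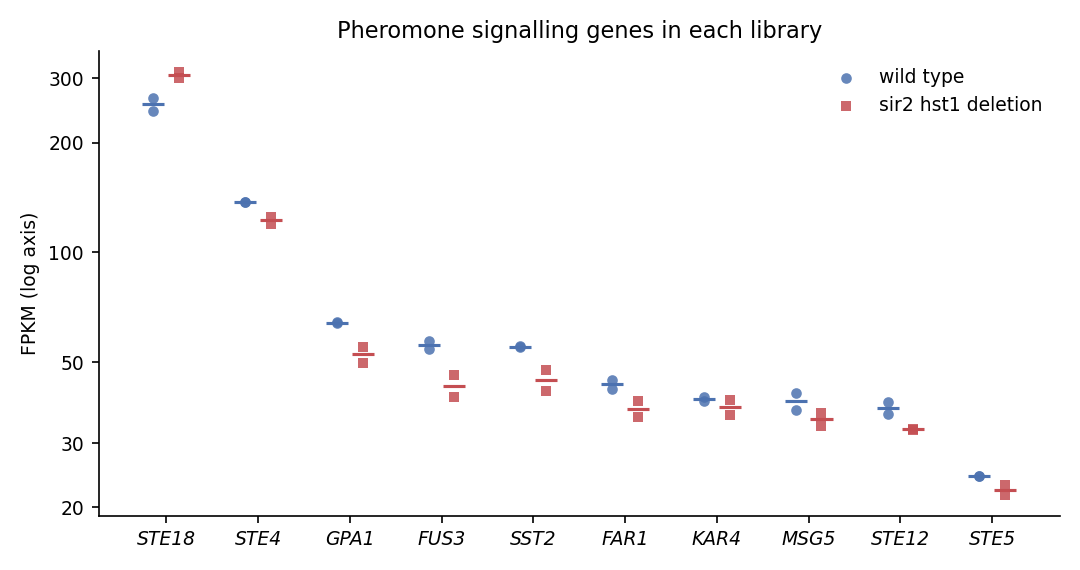
FPKM of the 10 pathway genes on a log axis, ordered by wild-type mean. Circles are the 2 wild-type libraries, squares the 2 deletion libraries, and bars the means. STE18 is higher in the deletion libraries, at 301 and 313 against 245 and 265, and the other 9 genes have lower means there.

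The members spanned a 10.5-fold range of wild-type level, and their order was much the same in both genotypes. STE18 was highest at 255 ± 13.8 FPKM and STE5 lowest at 24.4 ± 0.01 (mean ± SD, n = 2). STE4, GPA1, FUS3, SST2, FAR1, KAR4, MSG5 and STE12 followed STE18 in that order. In wild type the libraries of neighbours in this order overlapped for FUS3 and SST2, for KAR4 and MSG5, and for MSG5 and STE12. In the deletion strain SST2 had a higher mean than FUS3, and KAR4 a higher mean than FAR1. Libraries of both pairs overlapped there, as did those of FAR1 and MSG5.

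The genes of the G protein differed in direction. GPA1 (YHR005C), which encodes the alpha subunit that holds the signal off, had 64.5 and 63.8 FPKM in wild type and 55.2 and 49.8 in the deletion strain. Both deletion libraries lay below both wild-type libraries, and the wild-type pair agreed to 1.01% of its mean against 10.2% for the deletion pair. The mean was 81.8% of wild type (log2 difference -0.29, SE 0.07, limma adjusted p = 0.0768). STE4 (YOR212W), the gene of the signalling beta subunit, had 137.5 and 137.9 FPKM in wild type and 124.7 and 120.0 in the deletion strain. The libraries were again separate, and the mean was 88.9% of wild type (log2 difference -0.17, SE 0.05, adjusted p = 0.117).

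STE18 (YJR086W), which encodes the gamma subunit, was the member with the opposite direction. It had 264.5 and 245.0 FPKM in wild type and 312.7 and 301.0 in the deletion strain. Both deletion libraries were above both wild-type libraries, with 1.20-fold the mean (log2 difference 0.27, SE 0.06, limma adjusted p = 0.0691, and 0.0474 when only names in R64 were tested). STE18 is the shortest member, with 333 bases in R64 against 1008 to 2754 in the others. YJR087W, a name between STE18 and its right neighbour EMC2 in systematic order and absent from R64, had 141 and 135 FPKM in wild type and 125 and 121 in the deletion strain. Whether it shares reads with STE18 was not tested.

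Ratios within a library do not depend on the scaling between libraries. The ratio of STE4 to STE18 was 0.52 and 0.56 in wild type and 0.40 in both deletion libraries. This beta to gamma ratio was thus lower in both deletion libraries, by a log2 difference of -0.44, against a spread within genotypes of 0.06 (SD). The ratio of GPA1 to STE4 went from 0.47 and 0.46 in wild type to 0.44 and 0.42 in the deletion strain, a log2 difference of -0.12. With 2 libraries against 2 an exact two-sided permutation test cannot go below p = 0.333, which both ratios reached.

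**Figure D2:**
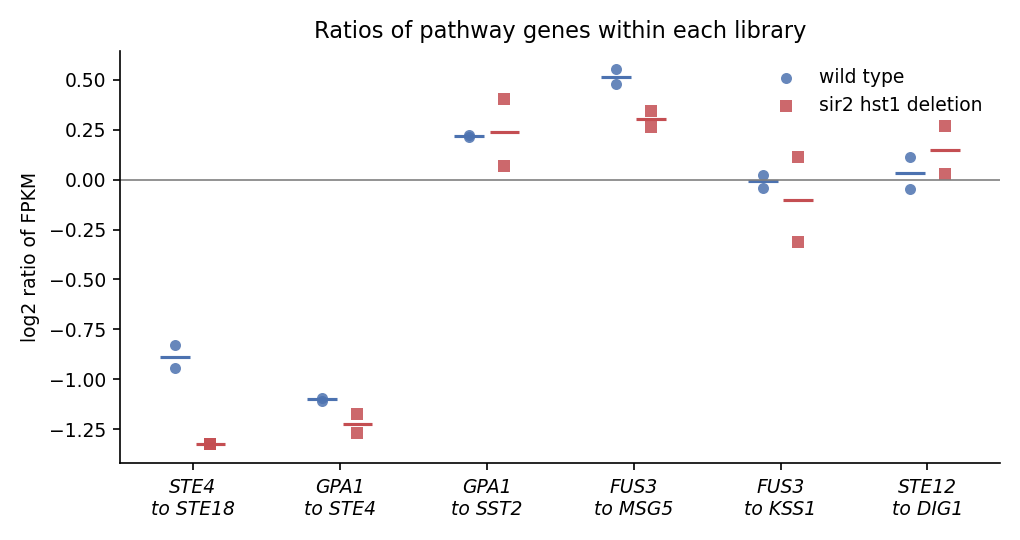
Log2 ratio of the FPKM of 2 pathway genes in each library, with circles for wild type, squares for the deletion strain and bars for the means. STE4 to STE18 has the largest log2 difference between genotypes of the 6 ratios, -0.44, and GPA1 to SST2, FUS3 to KSS1 and STE12 to DIG1 overlap.

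In the kinase module, FUS3 had the lowest relative level of all members. FUS3 (YBL016W), the gene of the mating kinase, had 57.3 and 54.3 FPKM in wild type and 40.2 and 46.0 in the deletion strain. The groups were separate, and the mean was 77.2% of wild type (log2 difference -0.37, SE 0.08, limma adjusted p = 0.0693, and 0.0436 when only names in R64 were tested). A smaller difference was found for 85.4% of all names tested. STE5 (YDR103W), which encodes the scaffold, had 24.4 FPKM in both wild-type libraries and 21.7 and 23.0 in the deletion strain. Its mean was 91.7% of wild type (adjusted p = 0.280).

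KSS1, whose kinase is the close relative of Fus3 and also acts on Ste12, had 56.3 and 55.9 FPKM in wild type and 50.0 and 42.4 in the deletion strain (limma adjusted p = 0.129). FUS3 and KSS1 were therefore listed at near-equal levels, with a ratio of 1.02 and 0.97 in wild type and of 0.80 and 1.08 in the deletion strain. These ratios overlapped between genotypes.

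The nuclear members, at which the signal acts on transcription and the cell cycle, had means of 85.8% to 94.9% of wild type. STE12 (YHR084W), the gene of the pathway's transcription factor, had 36.2 and 38.9 FPKM in wild type and 32.8 and 32.7 in the deletion strain. The libraries were separate (log2 difference -0.19, SE 0.06, limma adjusted p = 0.134). FAR1 (YJL157C), whose product arrests the cycle in G1 and guides growth toward the partner, had 42.3 and 44.6 FPKM in wild type and 39.2 and 35.4 in the deletion strain. Its libraries were separate as well, at 85.8% of wild type (adjusted p = 0.140).

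KAR4 (YCL055W), which encodes the partner of Ste12 at nuclear fusion genes, had the smallest difference. It had 40.1 and 39.2 FPKM in wild type and 39.4 and 35.9 in the deletion strain. One deletion library lay between the wild-type libraries (log2 difference -0.08, SE 0.07, adjusted p = 0.517). KAR4 lies 27.9 kb from an end of chromosome III in R64, on the arm that carries HML, and is the member nearest to a chromosome end. SST2 follows, at 36.8 kb from an end of chromosome XII.

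Both members that shut the signal off had lower means. SST2 (YLR452C), which encodes the regulator that speeds the return of Gpa1 to its inactive form, had 55.3 and 55.0 FPKM in wild type and 41.6 and 47.5 in the deletion strain. The libraries were separate, and the deletion pair differed by 13.1% of its mean against 0.60% for the wild-type pair. The mean was 80.8% of wild type (log2 difference -0.30, SE 0.08, limma adjusted p = 0.0872). The ratio of GPA1 to SST2 was 1.17 and 1.16 in wild type and 1.33 and 1.05 in the deletion strain, and it overlapped.

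MSG5 (YNL053W), the gene of a phosphatase that inactivates Fus3, had 41.2 and 37.1 FPKM in wild type and 33.4 and 36.3 in the deletion strain. Its wild-type libraries differed by 10.5% of their mean, the widest gap of any member in wild type. The mean was 89.1% of wild type (adjusted p = 0.257). The ratio of FUS3 to MSG5 went from 1.39 and 1.47 to 1.20 and 1.27 and was separate between genotypes, with a log2 difference of -0.21.

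Of the rest of the pathway only AFR1 passed, although MFA1 and MFA2 had larger log2 differences (1.38, SE 1.70, and 1.01, SE 0.37). MFA1 was listed at 0 in wild-type replicate 2, and its mean FPKM in the deletion strain was 83.5% of wild type. Of 39 other pathway genes, 1 was lower and 0 were higher at an adjusted p under 0.05 (limma; 11 lower and 2 higher at an unadjusted p under 0.05), against 2.79% lower and 6.75% higher over all names tested. The median log2 difference of these genes was -0.12. AFR1, whose product acts on receptor signalling and on the shape of the mating projection, fell from 28.5 and 25.1 FPKM to 17.8 and 16.2 (1.58-fold lower, log2 difference -0.63, SE 0.09, adjusted p = 0.0246). AFR1 no longer passed without wild-type replicate 1 (adjusted p = 0.0577), deletion replicate 1 (0.0754) or deletion replicate 2 (0.0919).

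In the cascade around the members 0 of 8 genes passed, and 7 had lower means. Among all names tested, 9.54% passed and 51.0% had lower means. CDC42, the gene of the polarity GTPase, had 590 and 623 FPKM in wild type and 634 and 656 in the deletion strain. CDC24, its exchange factor gene, had 24.3 and 24.8 FPKM against 21.0 and 20.6 (limma adjusted p = 0.0856), and BEM1, a polarity scaffold gene, 29.9 and 30.9 against 29.1 and 26.9. The kinase genes STE20, STE11 and STE7 stood at 96.0%, 84.3% and 94.3% of their wild-type means, and the adaptor gene STE50 at 85.5%.

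Receptors and pheromones did not pass either, with 0 of 6 genes against 9.54% over all names tested. STE3, the receptor gene of alpha cells, had 311 and 321 FPKM in the deletion libraries, 87.3% of wild type (limma adjusted p = 0.0822). MF(ALPHA)1, the major alpha-factor gene, had 2749 and 2791 FPKM in wild type and 2185 and 2543 in the deletion strain, while MF(ALPHA)2 had 2109 and 2273 against 2186 and 2474. STE2, the receptor gene of a cells, had 8.87 and 7.98 FPKM in the deletion strain. The a-factor genes differed widely between the wild-type libraries: MFA1 was listed at 35.3 and 0 FPKM and MFA2 at 47.0 and 21.1, against 14.2 and 15.3 and against 68.1 and 61.0 in the deletion strain.

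Partners of Ste12 had lower means in 4 of 4 genes, and 0 passed, against 51.0% and 9.54% over all names tested. DIG1, which encodes a repressor of Ste12, had 37.4 and 35.9 FPKM in wild type and 27.2 and 32.1 in the deletion strain (limma adjusted p = 0.120). The ratio of STE12 to DIG1 overlapped between genotypes, at 0.97 and 1.08 in wild type and 1.21 and 1.02 in the deletion strain. DIG2, its relative, stood at 91.3% of wild type, TEC1, the filamentation partner of Ste12, at 88.2%, and MCM1, a DNA-binding partner, at 87.3%.

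Other negative regulators and the cell cycle genes that Far1 acts on gave 0 calls among 5 and 4 genes. The share called among all names tested was 9.54%. PTP2, a phosphatase gene, stood at 82.2% of wild type (limma adjusted p = 0.0889), and RGA1 and RGA2, genes of Cdc42 inactivators, at 85.9% and 86.4%. The G1 cyclin genes CLN1 and CLN2 differed in direction. CLN1 had 57.9 and 55.3 FPKM in wild type and 49.5 and 44.7 in the deletion strain (adjusted p = 0.0969), and CLN2 had 60.4 and 60.6 against 66.3 and 78.0 (adjusted p = 0.161). CDC28, the gene of their kinase, stood at 82.3% of wild type.

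**Figure D3:**
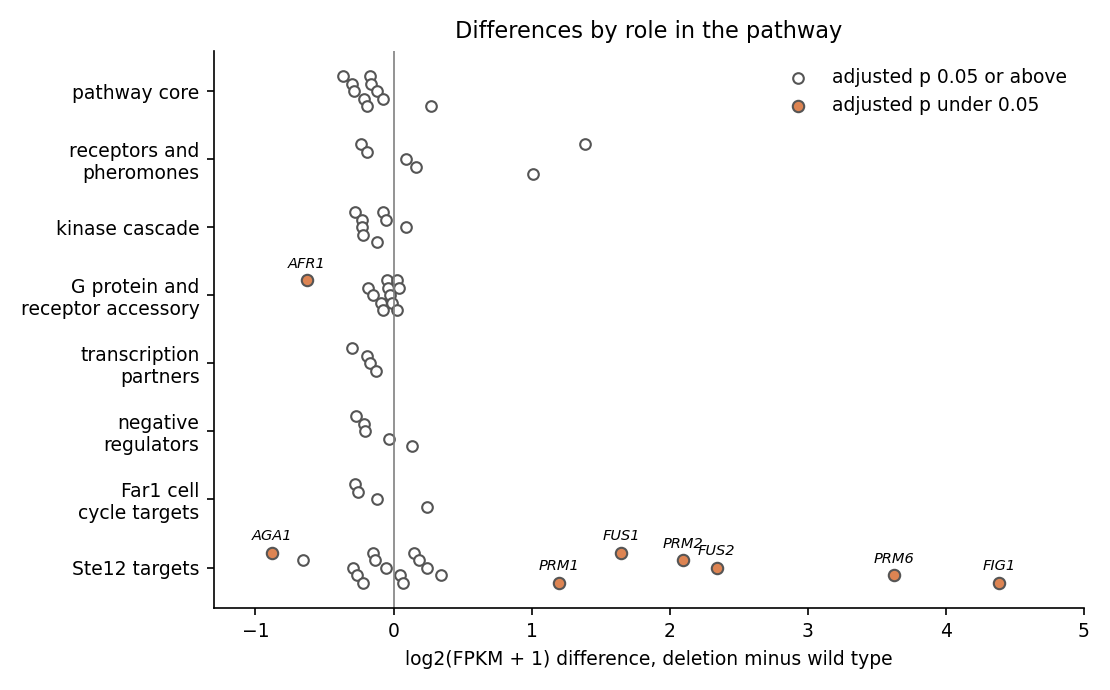
Difference in log2(FPKM + 1) between the deletion strain and wild type, 1 point a gene, by role in the pathway; filled points passed at an adjusted p under 0.05. The 10 core genes lie between -0.37 and 0.27, whereas Ste12 targets reach 4.39.

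Among targets of Ste12, several genes that were low in wild type were higher in the deletion strain. Of 20 targets 6 rose and 1 fell (limma, adjusted p under 0.05), against 6.75% higher and 2.79% lower over all names tested. The list was chosen with earlier results of these data known, so these counts describe it and do not test an excess. The alternatives gave 5 to 8 higher targets, 5 without deletion replicate 1 and 8 when only names in R64 were tested. FUS1, of cell fusion, had 6.78 and 5.75 FPKM in wild type and 23.5 and 20.1 in the deletion strain, a 3.48-fold rise (log2 difference 1.65, SE 0.12, adjusted p = 0.00288). PRM1, a membrane fusion gene, rose from 6.16 and 5.86 to 15.4 and 14.9 FPKM (adjusted p = 0.00224). FUS2, FIG1, PRM2 and PRM6 also rose, by 2.34, 4.39, 2.10 and 3.63 on the log2(FPKM + 1) scale. PRM6 had 0.26 and 0.52 FPKM in wild type against 16.6 and 15.7, and FIG1 had 0.77 and 1.83 against 44.9 and 46.6. Both genes thus met the filter of 1 FPKM in 2 libraries only through the deletion libraries, and PRM6 was not tested when either of these was left out. Without the filter PRM6 (adjusted p = 0.00096) and FIG1 (0.00347) passed as well. Their sizes depend on the pseudocount: with 0.1 and with 5, the log2 difference was 5.09 and 1.97 for PRM6 and 5.15 and 3.02 for FIG1. AGA1, an agglutinin anchor gene, fell from 38.2 and 40.9 to 20.9 and 21.1 FPKM (adjusted p = 0.00281).

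The other 13 targets did not pass. PRM10 stood at 62.7% of wild type (limma adjusted p = 0.0574), PCL2 at 80.7%, KAR5 at 82.1%, PRM5 at 85.9%, PRM8 at 90.1%, CHS1 at 91.4% and GIC2 at 96.1%. PRM3 was 1.28-fold (adjusted p = 0.0506) and SCW10 1.19-fold (0.0574) the wild-type mean, and FIG2, PRM4, CIK1 and KAR3 were between 1.04-fold and 1.15-fold. PRM3 passed in 4 of the 13 alternatives (adjusted p between 0.0321 and 0.0499), SCW10 when only names in R64 were tested (0.0395) or without deletion replicate 2 (0.0476), and PRM10 in the former (0.0326) and with the replicate block (0.0222). Of the 5 targets that also need Kar4, PRM2 rose, and PRM3, KAR5, CIK1 and KAR3 did not pass.

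The pheromone response element stood in the same window of 5 of the 6 targets that rose, FIG1 being the exception, against 7.50% of all upstream regions. It also stood in that of AGA1 and in that of 4 of the 13 that did not pass. For PRM10, 1 of these 4, the only match lies in the coding bases after the start codon. The member KAR4 carries as many exact copies as FUS1, 2 each, and the members STE18, FUS3 and SST2 as many as PRM6, 1 each. Near matches were not counted, and whether the element bears on these differences was not tested. CIK1 also carries 1 copy and was not among the genes that passed, with 6.78 and 6.89 FPKM in wild type against 8.34 and 7.10 (limma adjusted p = 0.415).

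Genes next to the members did not pass. Of 19 listed genes that lie nearest to a member on either side in R64, 0 passed (limma), against 9.54% over all names tested. At an unadjusted p under 0.05, 3 were higher and 2 lower, against 16.1% and 14.1% over all names tested. The neighbour with the largest difference was YDR102C, divergent from STE5, with 3.83 and 2.29 FPKM in wild type and 5.55 and 11.3 in the deletion strain (2.75-fold, log2 difference 1.17, SE 0.36, adjusted p = 0.118). PEP1, a vacuolar sorting receptor gene divergent from FUS3, had 29.4 and 27.9 FPKM in wild type and 23.3 and 23.8 in the deletion strain, and passed when only names in R64 were tested. TMH11, divergent from STE18, had 644 and 643 FPKM in wild type and 635 and 689 in the deletion strain. EMC2, which converges on STE18, had 122 and 123 FPKM against 129 and 114. PEX34, divergent from KAR4, had 88.8 and 83.7 FPKM against 97.8 and 96.1.

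Other haploid-specific genes did not share a direction. AXL1, a protease gene of a-factor maturation, fell from 21.7 and 20.4 to 16.5 and 16.0 FPKM (limma adjusted p = 0.0491), but did not pass when any 1 library was left out (adjusted p between 0.107 and 0.217) or with the replicate number as a block (0.0752). RME1, a repressor of meiosis, had 120 and 116 FPKM against 98.9 and 91.6. NEJ1, of DNA end joining, had 31.1 and 31.4 FPKM against 37.3 and 37.0, and HO, of mating-type switching, 15.8 and 15.5 against 20.6 and 19.4. RME1 (0.0381), NEJ1 (0.0468) and HO (0.0343) passed when only names in R64 were tested (limma adjusted p). These 4 genes ranged from 77.3% to 128% of wild type, and the members from 77.2% to 120%.

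**Figure D4:**
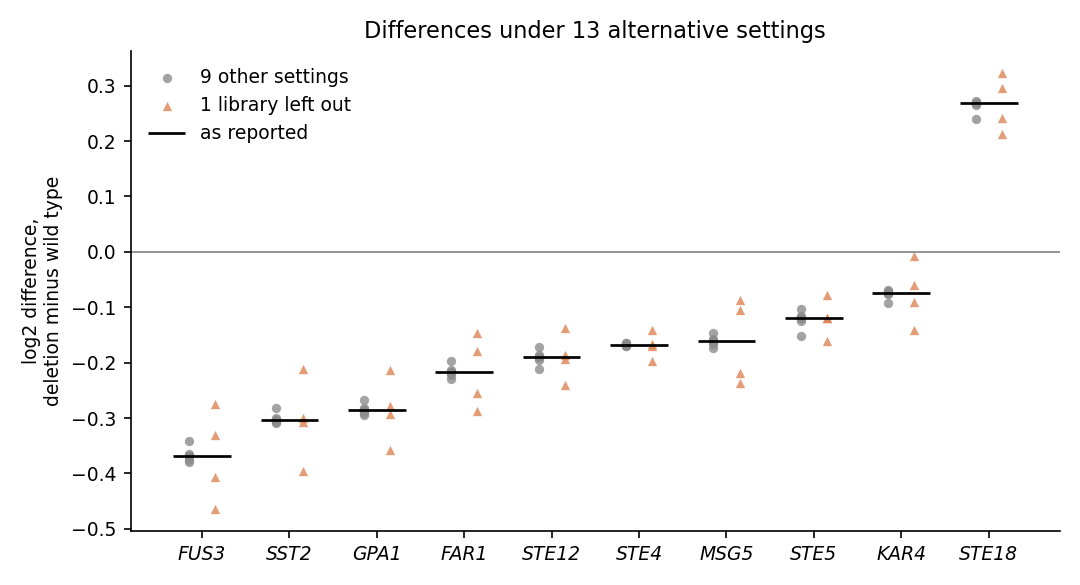
Log2 difference of each member under 13 alternative settings; triangles leave out 1 library, circles are the 9 other settings and bars the values reported. STE18 stays above 0 and the other 9 stay below 0 in each setting. Settings that change only the names kept, the trend or the block leave these values as they are.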

How the data were processed

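The deposited FPKM values, 1 file per library, were made with TopHat2 2.0.10 and with Cuffnorm 2.2.1, per the submitters' processing notes. For the build, annotation, scaling between libraries, strand and multiply mapping reads the setting is not given in the sources used here, so overlapping genes may share reads. Of 6690 names, 6007 matched R64, which gave symbols, neighbours and upstream sequence. The test kept 6370 names that reached 1 FPKM in 2 or more libraries. It was limma (version 3.58.1, run in R 4.3.3) applied to log2(FPKM + 1). This used eBayes with a trend, no term but genotype, and p-values adjusted over all tested names by Benjamini and Hochberg, and was tested on simulated data. Log2 differences are on this scale and understate changes of low genes; folds and percentages of wild type are ratios of mean FPKM. Relative depth came from names under 1 FPKM, 127 in wild-type replicate 2, 89 in deletion replicate 1 and 102 in deletion replicate 2. Ratios of their values fell on steps of whole reads within 0.01 (log2) for 36.2%, 29.2% and 33.3%, too few to recover reads. The members and gene lists were chosen with earlier results of these data known. The text names all members, receptors, pheromones, cascade genes, Ste12 partners and targets. From other lists it names genes that passed, or else up to 3 with the largest difference. Neighbours and haploid genes were picked after their values were seen. Alternatives were other pseudocounts, filters, scalings, eBayes without trend, a replicate block, R64 names only and leaving out each library.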

Additional observations from a re-analysis of the deposited data

How the results depend on the processing

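No member changed direction under the 13 alternatives, and 9 members had lower means in each. The filters, R64 names only, eBayes without trend and the replicate block leave the differences of members and other genes unchanged, so they could not alter a direction. Where the libraries of the genotypes are separate, leaving out 1 library could not alter it either. The count of members passing was 0 whichever library was left out and moved from 0 to 2, FUS3 and STE18, when only names in R64 were tested; other settings gave 0. That restriction, which tests fewer names, also gave 512 higher genes in all against 430 and 297 lower against 178, 8 higher Ste12 targets against 6 (PRM3 and SCW10 added), 2 lower against 1 (PRM10 with AGA1), 1 neighbour, PEP1, and RME1, NEJ1 and HO. Quantile normalization gave 294 lower genes and 2 other pathway genes, with MF(ALPHA)1 added. It turned FIG2 to -0.34, CIK1 to -0.12, KAR3 to -0.038 and STE2 to -0.077; the cause was not tested. Replicate numbers are not said to pair libraries, and deviations of same-numbered libraries correlated at -0.0944 across names. With the replicate block, 111 genes were lower in all, 2 Ste12 targets were lower and 0 members passed. Leaving out 1 library gave 184 to 377 higher and 47 to 83 lower genes, 0 to 2 other pathway genes and 0 to 1 neighbours (CIS3, next to FAR1, without deletion replicate 1). The remaining library of a genotype then takes its spread from the other genotype. Values that changed sign among these were those of GIC2 (from -0.12 to 0.013), MFA1 (from -1.21 to 3.98), FIG2 (from -0.043 to 0.14) and MF(ALPHA)2 (from -0.0022 to 0.18). AXL1 also missed the threshold with a pseudocount of 0.1, median-of-ratios scaling, no trend, no filter or the replicate block (adjusted p between 0.0501 and 0.0752). The neighbours, ratios, a genes and other genes outside the members were put through the alternatives only after the data were seen. Over 660 values of 51 other named genes under the alternatives, 623 kept direction and side of the threshold. Read totals are not in these files, so depth sets no stated limit.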
